A study of Mus musculus with 199 samples.

Results

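The 48 mitosis and spindle genes described here were chosen by symbol for their known roles in cell division, by a rule with no threshold on a measured value though with earlier results of these data known, and all 48 were found among the 31581 genes of the deposited table. Their transcripts were followed in KP1, an explanted mouse small-cell lung cancer line of genotype Rb1-/-Trp53-/-, grown as spheroids or as liver colonies in nude (immunocompromised) or F1 (immunocompetent) mice. Each library held 10 cells cut by laser from a cryosection, amplified by poly(A) PCR: 28 libraries from spheroids, 33 from nude liver and 31 from F1 liver. Pool-and-split controls of the same 3 kinds numbered 20, 35 and 24. A further 24 10-cell libraries came from spheroids of RPC, an explanted pre-cancerous line of genotype Rb1-/-Trp53-/-p130-/+Crebbp-/-. There was 1 bulk library each of the lines KP1, KP2 (Rb1-/-Trp53-/-Ptch1+/lacz), KP3 (Rb1-/-Trp53-/-Axin2+/lacz) and KP5 (Rb1-/-Trp53-/- BAT-GAL). Every group thus carries the Rb1 and Trp53 deletions. All liver colonies come from the line KP1, the 2 kinds of host are of different strains besides differing in their immune system, and the labels do not give the age of the mice or how many mice or cultures the libraries came from.

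Cells prepare for division by accumulating cyclin-dependent kinase 1 and its cyclins, which start chromosome condensation and spindle assembly. Kinetochores then bind spindle fibres, and the checkpoint holds back the anaphase-promoting complex until every chromosome is attached, after which cyclins and securin are destroyed and the cell divides. Transcripts of these genes are low in quiescent cells and rise together in G2 and M phase. Many of their promoters carry a CCAAT box, bound by NF-Y, and a cell cycle genes homology region (CHR), bound by the DREAM and MuvB complexes; the retinoblastoma protein, lost in these lines, is a well-known repressor of cell cycle genes.

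The promoters of 5 genes are shown because the results turn on them: Kif22, Cks2, Ndc80 and Cdk1 were called lower in nude liver than in spheroids, and Kif11 had the opposite sign. Each runs from 250 bases before to 50 bases after the start site, 5′ to 3′ on the gene's strand, from RefSeq on GRCm38.p6. Capitals mark each CHR (TTTGAA, or TTCAAA on the other strand) and each CCAAT box (CCAAT, or ATTGG on the other strand).
Kif22 promoter, chr7:127042371-127042670, minus strand: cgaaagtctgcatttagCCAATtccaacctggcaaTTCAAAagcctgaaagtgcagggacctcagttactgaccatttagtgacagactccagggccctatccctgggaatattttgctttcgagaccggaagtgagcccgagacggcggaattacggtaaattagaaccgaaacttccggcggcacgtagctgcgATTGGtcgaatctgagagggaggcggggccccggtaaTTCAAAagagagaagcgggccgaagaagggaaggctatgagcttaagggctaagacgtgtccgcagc
Cks2 promoter, chr13:51644982-51645281, plus strand: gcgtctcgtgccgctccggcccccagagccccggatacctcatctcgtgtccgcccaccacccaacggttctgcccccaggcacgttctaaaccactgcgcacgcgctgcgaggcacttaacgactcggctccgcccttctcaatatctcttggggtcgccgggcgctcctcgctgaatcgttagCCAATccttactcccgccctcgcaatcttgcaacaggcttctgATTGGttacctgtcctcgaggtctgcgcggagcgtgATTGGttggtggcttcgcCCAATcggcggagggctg
Ndc80 promoter, chr17:71526808-71527107, minus strand: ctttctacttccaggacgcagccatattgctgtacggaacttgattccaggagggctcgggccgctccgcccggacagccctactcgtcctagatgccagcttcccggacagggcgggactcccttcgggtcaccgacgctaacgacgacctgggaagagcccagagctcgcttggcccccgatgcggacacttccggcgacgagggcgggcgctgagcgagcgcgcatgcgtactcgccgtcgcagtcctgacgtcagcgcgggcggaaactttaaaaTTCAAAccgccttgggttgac
Cdk1 promoter, chr10:69352863-69353162, minus strand: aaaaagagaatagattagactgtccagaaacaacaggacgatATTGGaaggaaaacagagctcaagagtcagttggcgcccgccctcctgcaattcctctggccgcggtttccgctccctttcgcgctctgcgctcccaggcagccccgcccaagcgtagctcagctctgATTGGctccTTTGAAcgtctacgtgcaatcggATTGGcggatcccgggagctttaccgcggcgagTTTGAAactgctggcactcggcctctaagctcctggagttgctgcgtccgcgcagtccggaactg
Kif11 promoter, chr19:37376132-37376431, plus strand: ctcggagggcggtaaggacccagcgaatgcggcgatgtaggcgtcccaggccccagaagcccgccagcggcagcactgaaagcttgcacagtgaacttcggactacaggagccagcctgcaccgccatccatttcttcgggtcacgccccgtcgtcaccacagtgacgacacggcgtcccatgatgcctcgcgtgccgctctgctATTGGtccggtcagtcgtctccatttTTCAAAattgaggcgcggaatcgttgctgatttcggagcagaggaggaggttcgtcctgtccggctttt
The Cks2 window held 4 CCAAT boxes and no CHR, the Ndc80 window 1 CHR and no CCAAT box, and the Kif22, Cdk1 and Kif11 windows held both motifs.

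The RefSeq promoter table held 40 of the 48 genes. A CHR stood in the window of 30 of the 40 (75.0%) and of 20.2% of all 27025 genes in the table. A CCAAT box stood in 30 (75.0%) and in 41.1% of all genes, and both motifs stood together in 26 (65.0%) and in 7.97% of all genes. By bins of 50 bases, the CHR was most frequent just downstream of the start: 44.2% of the members' 43 promoters had it in the first 50 transcribed bases and 23.3% in the 50 bases before the start, against 2.30% and 2.87% of all 32851 promoters. The CCAAT box lay upstream, with 48.8% of the members' promoters holding it in the 50 bases before the start and 46.5% in the 50 bases before those, against 9.22% and 12.4% of all promoters. By their call in nude liver, a CHR was found in 17 of the 24 genes called lower there (70.8%) and in 12 of the 15 tested genes that were not (80.0%), and a CCAAT box in 16 of 24 (66.7%) and 14 of 15 (93.3%). These shares are descriptions of letters in a window, not of binding.

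**Figure D1:**
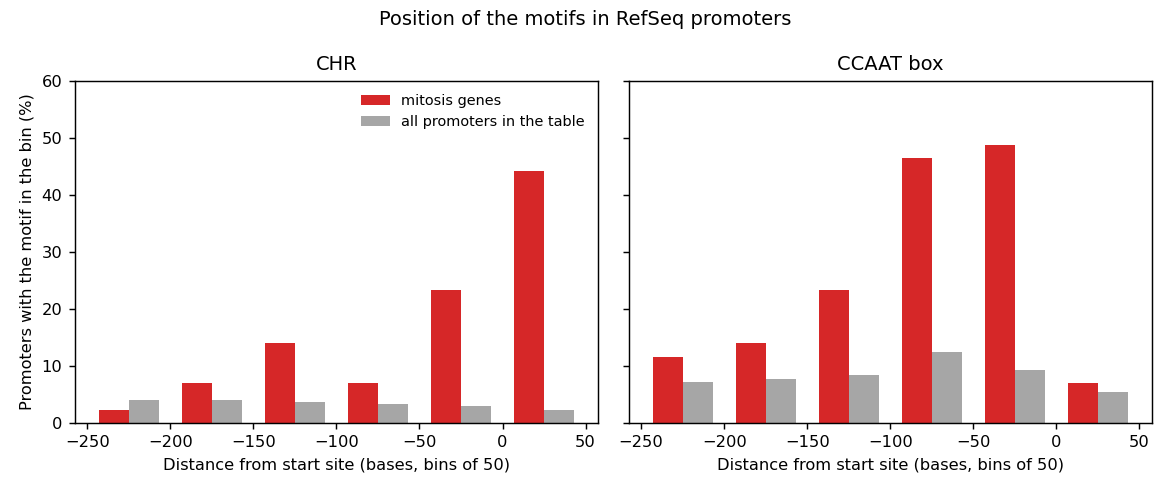
Share of promoters (percent, vertical axis) with a CHR (left) or a CCAAT box (right) in each 50-base bin by distance from the start site; red bars are the 43 promoters of 40 mitosis genes and grey bars all 32851 promoters in the RefSeq table. The members' CHR share is highest in the bin just after the start (44.2%), and their CCAAT share in the bin just before it (48.8%).

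Levels are given as CPM, gene counts scaled to the same total in every library. The 10-cell and pool-and-split libraries held 1007999 to 7616756 counts, with the spike-ins included. The lowest medians were in the nude liver groups, 2893525 in captures and 2893809 in pools. Spike-in (ERCC) counts made up a median of 0.0047% of spheroid captures, 0.969% of nude, 2.16% of F1 and 0.333% of RPC captures, and 9 of the 28 spheroid captures stood apart with over 0.1%. In F1 liver, 5 of 31 captures stood apart by a low level of the pseudogene Rpl19-ps11. Neuroendocrine markers of small-cell lung cancer were present in every group, with a median sum over 14 genes of 3201 CPM in spheroid, 2081 in nude, 2967 in F1 and 2104 in RPC captures. The 17 hepatocyte markers, which define the host tissue, summed to a median of 959 CPM (range 33.4 to 4927) in nude captures, 190 (0 to 2704) in F1 captures and 1.11 (0 to 83.6) in spheroid captures. The medians of Fga, Fgg and Cyp3a11 were 0 in nude captures while Alb had a median of 274 CPM. T and NK cell markers had a median sum of 0.433 CPM in nude and 0 in F1 captures. Kupffer and myeloid markers had median sums of 59.0 CPM in nude, 77.1 in F1 and 13.6 in spheroid captures. For endothelial and stellate markers the median sums were 31.7 CPM in nude, 10.4 in F1 and 0.24 in spheroid captures. Rb1 counts were present in the bulk libraries of these Rb1-/- lines (143 to 193 CPM), and whether they come from outside the deleted part was not tested.

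Summed over the 48 genes, spheroid captures held a median of 7021 CPM (3249 to 12018), F1 liver captures 4906 (2431 to 10229), nude liver captures 3897 (1203 to 5585) and RPC captures 6385 (3057 to 8661). The nude liver captures sat lowest, and every group overlapped the others. The pools gave the same order, with medians of 8660 CPM in spheroid (4715 to 11554), 6269 in F1 liver (3431 to 11968) and 4206 in nude liver pools (1767 to 7958). Gene by gene, the spheroid captures had the highest median of the 3 KP1 settings for 43 of the 48 genes and the nude captures the lowest for 36, and 34 genes followed the order spheroid, F1 liver, nude liver. In the pools, 35 genes followed that order. The same orders were not counted over all genes. Nude captures also held more hepatocyte marker RNA than spheroid captures (median sums 959 and 1.11 CPM) and fewer counts. The part of these in the orders was not tested. These captures cannot tell apart fewer dividing cells and less RNA per dividing cell. Among the spheroid pools, the 6 libraries with high ERCC shares summed to 4715 to 7039 CPM and the other 14 to 8043 to 11554, with no overlap. Among the F1 captures, the 5 with low Rpl19-ps11 had a median sum of 8081 CPM and the other 26 of 4766.

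**Figure D2:**
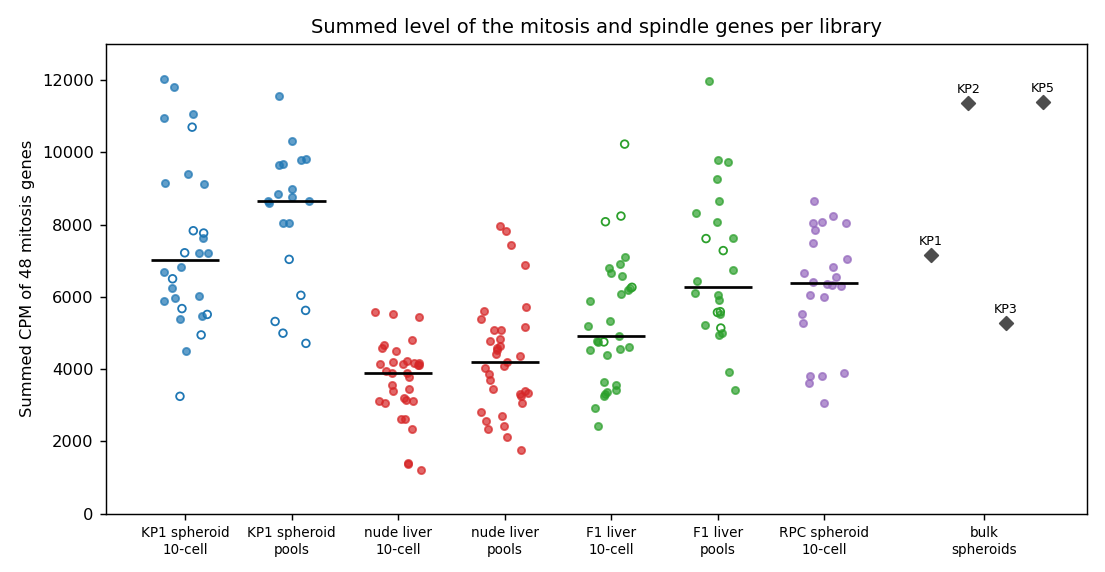
Summed CPM of the 48 mitosis genes (vertical axis) in each library, by group; each point is 1 library, black lines are group medians, open circles are spheroid libraries with ERCC above 0.1% or F1 libraries with low Rpl19-ps11, and diamonds are the bulk lines. Nude liver captures lie between 1203 and 5585 CPM and spheroid captures between 3249 and 12018.

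At least 1 count was found in every library for 41 of the 48 genes in spheroid captures, 35 in RPC, 24 in F1 and 14 in nude captures. Nude captures had the lowest median count total of these groups. The share of all genes found in every library was not computed. In nude captures 15 genes were at 0 in 5 or more of the 33 libraries. Kif20b, a kinesin of the late spindle, had a median of 0 in spheroid captures (highest 2.09 CPM) and F1 captures (highest 33.5), 0.297 CPM in RPC captures (highest 6.46) and 1.77 CPM in nude captures (highest 68.2, with counts in 21 of 33). It did not pass the filter on low counts in any of the 4 comparisons of captures.

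The comparison of nude liver colonies with spheroids shows how the same tumour line differed between an immunocompromised liver and culture. Of 47 genes tested, 28 were lower in nude liver and 0 higher, by edgeR's quasi-likelihood test with a Benjamini-Hochberg adjusted p under 0.05 over all 7834 genes. Over all genes 34.1% were called, 16.3% lower and 17.7% higher. The members' median log2 fold change was -1.25, against -0.04 over all genes, and 3 of 47 were positive. At an unadjusted p under 0.05 the count was 35 of 47, with 3374 of the 7834 genes. Because the labels do not tie captures to animals, p-values here and below speak for captures and are too small for animals.

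Among the cyclins and entry kinases, 5 of 9 were lower in nude liver. Cdk1 (chr10:69335146-69352938), the kinase that drives mitotic entry, had a median of 107 CPM in spheroid captures (9.27 to 394) and 15.5 in nude captures (0 to 148). Nude captures were mostly lower, 6 of 33 had no count, and the groups overlapped. Its log2 fold change was -2.48 (SE 0.48, adjusted p 3.11e-05). Cks2 (chr13:51645232-51650660), a small adaptor subunit of Cdk1, had a median of 378 CPM in spheroids (3.83 to 1018) and 46.8 in nude liver (0 to 450). The spheroid median lay near the top of the nude range, and the difference was -3.02 (SE 0.44, adjusted p 6.28e-08), or 8.09-fold. Plk1, a kinase of centrosome maturation and mitotic entry, had a median of 67.1 CPM in spheroids (0.264 to 164) and 4.45 in nude liver (0 to 134), with no count in 14 of the 33 nude captures (-2.02, SE 0.65, adjusted p 0.0113). Ccnb2 (-2.36) and Cks1b (-1.45) were the other genes of this group called lower. The pseudogene Ccnb2-ps, which can share reads with Ccnb2, had median levels of 0 CPM in spheroid and 1.19 in nude captures (highest 42.4). Ccnb1, the main cyclin partner of Cdk1 in mitosis, did not pass the test: 164 CPM in spheroids (14.7 to 656) against 109 in nude liver (19.4 to 567), -0.67 (SE 0.29, adjusted p 0.0608), and it was detected in every capture. Ccna2, Cdc25c and the spindle pole kinase Aurka, at -0.21, did not pass either.

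Both Birc5 (-1.35) and Incenp (-0.89) of the chromosomal passenger complex, which corrects faulty attachments, were lower. Its kinase Aurkb had medians of 66.9 CPM in spheroids (0 to 338) and 10.4 in nude liver (0 to 922), ranges that overlapped fully, and was not called (-0.68, SE 0.63, adjusted p 0.417). Of the spindle checkpoint genes, Bub1 (-2.33), Ttk (-1.66) and Bub3 were lower, while Bub1b and Mad2l1 did not pass. Bub3 (chr7:131560222-131571895), which brings checkpoint kinases to kinetochores, fell from a median of 291 CPM (93.3 to 560) to 86.8 (0 to 292): -1.94 (SE 0.35, adjusted p 6.55e-06). The spheroid median lay at the top of the nude range. Bub3 overlaps Fgfr2 and the library is not stated to be stranded, so reads of the pair cannot be told apart.

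Of the genes listed under anaphase and cyclin destruction, Cdc20, the activator of the anaphase-promoting complex (-1.55), and Ube2c, its ubiquitin-conjugating enzyme (-1.37), were lower. So were Pttg1, securin (-2.47), and Cdca3 (-1.65), which was listed with them. Of 7 kinetochore and centromere genes 3 were lower, all of the 4-subunit NDC80 complex that grips spindle fibres: Ndc80, Nuf2 (-1.40) and Spc24 (-0.89), with Spc25 at -0.81 not called. Ndc80 (chr17:71496100-71526857) had a median of 165 CPM in spheroids (11.1 to 559) and 3.93 in nude liver (0 to 101), with 9 nude captures at 0. Most spheroid captures lay above the highest nude capture, and at -3.74 (SE 0.55, adjusted p 1.01e-07) it had the lowest fold change of all members in this comparison. The histone variant Cenpa (0.15) and the kinetochore proteins Cenpe and Cenpf were not called.

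Of 6 kinesins tested 3 were lower. Kif22 (chr7:127027729-127042471), a chromosome-arm motor, had a median of 143 CPM in spheroids (35.4 to 662) and 16.9 in nude liver (0 to 133), so that the spheroid median lay above every nude capture (-3.01, SE 0.43, adjusted p 3.32e-08). Kif20a, a motor of the central spindle, had medians of 91.3 (10.4 to 288) and 7.85 CPM (0 to 95.2), with overlapping ranges (-3.32, SE 0.49, adjusted p 9.29e-08); it overlaps Cdc23. Of the other genes named here, Ube2c, Cdc20, Cenpf, Nusap1, Ccna2, Smc2, Kif4, Prc1 and Cdc25c also overlap another gene, and their values carry the same uncertainty. Kif2c, a fibre-shortening kinesin, was also lower (-2.57). Kif11 (chr19:37376403-37421859), the motor that pushes spindle poles apart, had the opposite sign: 3.39 CPM in spheroids (0 to 348) against 23.5 in nude liver (0.248 to 387), 1.30 (SE 0.61, adjusted p 0.0889), not called in captures and with full overlap.

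Tpx2 (-1.25) and Nusap1 (-0.95), which nucleate and bundle spindle fibres, were lower and Prc1 was not called. Of 3 cytokinesis genes only Anln, a scaffold of the contractile ring, was called (-3.06), from a spheroid median of 6.26 CPM. Of 6 chromosome structure genes 5 were lower. Top2a, the topoisomerase that untangles sister chromosomes, had a median of 400 CPM in spheroids (34.6 to 1202) and 188 in nude liver (13.8 to 526): -1.19 (SE 0.27, adjusted p 0.000352). Mki67, the coat protein of mitotic chromosomes and a common proliferation marker, had 554 CPM in spheroids (178 to 1625) and 479 in nude liver (25.1 to 1574), -0.75 (SE 0.24, adjusted p 0.0121); its groups overlapped across nearly their whole range. The condensin subunits Smc2 (-1.72), Ncaph (-2.47) and Ncapd2 (-1.30) were lower and Smc4 was not called.

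With the hepatocyte marker score as a covariate 7 of the 28 remained called (14.9% of the 47 tested, where 13.2% of all genes were called, 4.56% lower) while the members' median was -1.38, and its 17 markers sum to at most 83.6 CPM in any spheroid capture, so score and setting move together; with only the 17 nude captures at or below the median score 25 genes were called, 24 of them among the 28, with a median of -1.29 and 26.7% of all genes called (13.5% lower). Against the 9 spheroid captures with high ERCC alone 12 genes were lower and 2 higher, with a median of -1.08 and 19.4% of all genes called (7.3% lower, 12.1% higher). With counts thinned to one depth 23 of 44 genes were called, all among the 28, with a median of -1.0 and 38.1% of all genes called. Without libraries of at least 5% ERCC counts 30 were called, 27 of them among the 28, with a median of -1.21 and 32.7% of all genes called. Erythroid markers moved with the comparison as well, with a median sum of 551 CPM in nude captures (0.593 to 3743) and 0 in spheroid captures (highest 31.3), and their part was not tested.

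**Figure D3:**
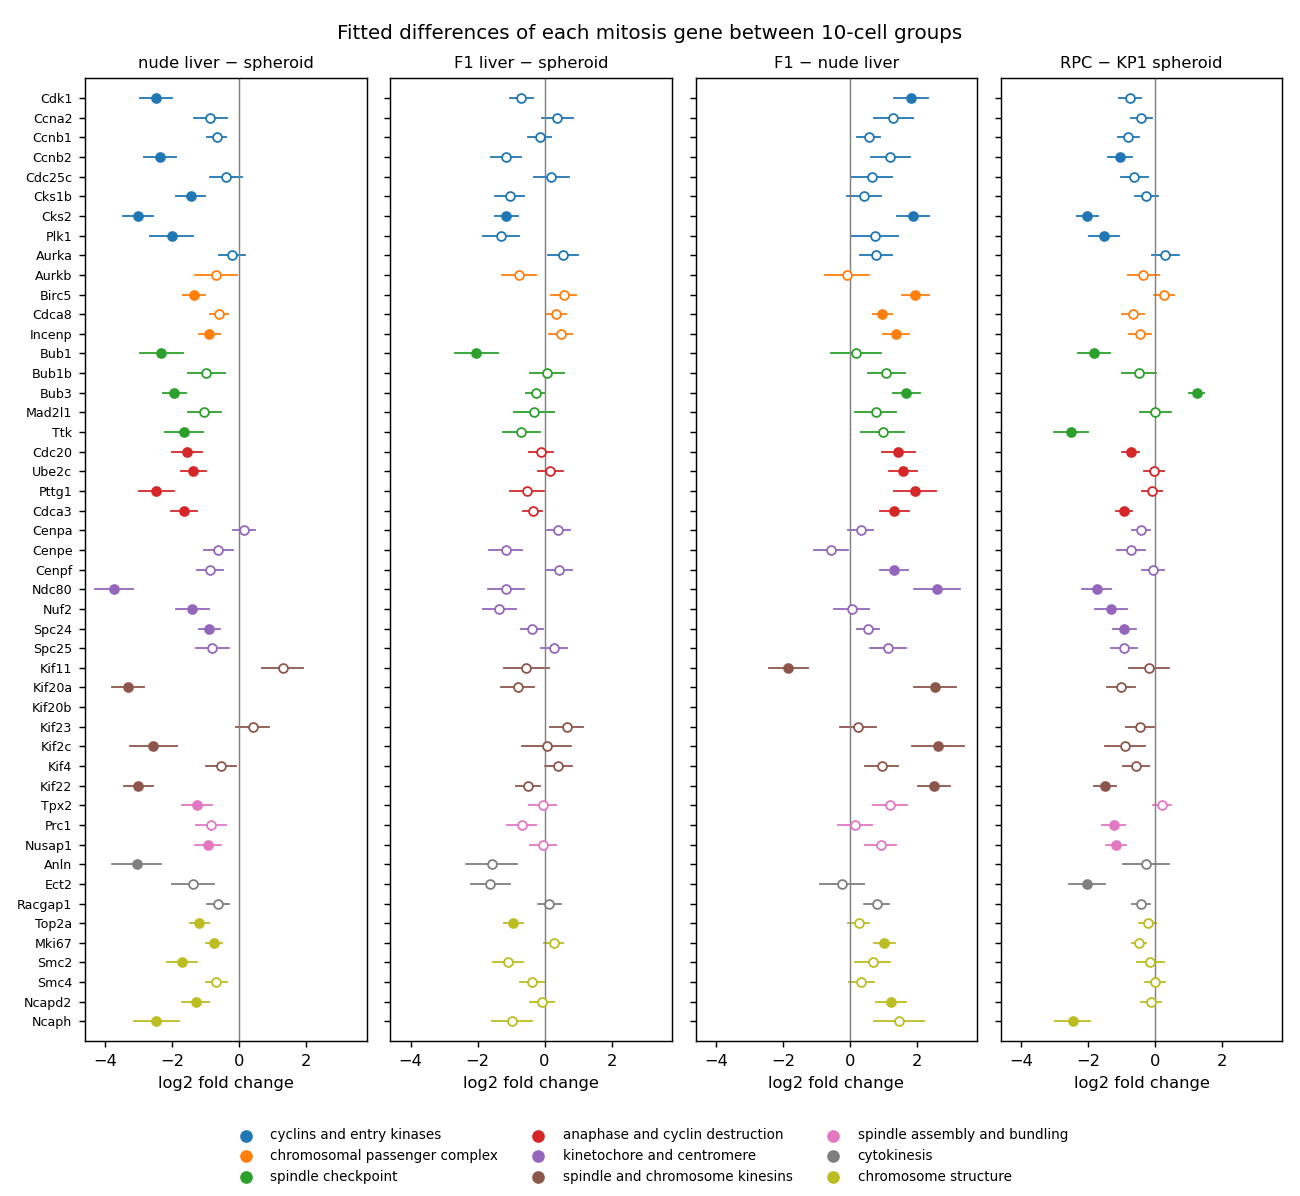
Log2 fold change (horizontal axis) with its standard error for each mitosis gene, ordered and coloured by role, in the 4 comparisons of 10-cell groups; filled points passed an adjusted p of 0.05 and open points did not, and Kif20b was not tested. In nude liver 28 filled points lie left of 0, and in F1 liver against spheroids 3 do.

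The comparison of F1 liver colonies with the same spheroid captures asks about the immunocompetent liver; it shares its controls with the nude comparison, so values are given side by side without a test between them. Of 47 genes, 3 were lower and 0 higher, with 12.6% of all 7309 genes called (4.91% lower, 7.72% higher). The members' share called, 6.38%, lay under that of all genes and near their share lower. The count is therefore no result about the members. The members' median log2 fold change was -0.35, against 0.22 over all genes, and 16 were positive. The called genes were Cks2, with 138 CPM in F1 liver (0.674 to 434; -1.15, SE 0.34, adjusted p 0.0184), Top2a, with 149 CPM (0.951 to 553; -0.94, SE 0.28, adjusted p 0.0196), and the checkpoint kinase Bub1, with 7.14 CPM in F1 liver (0 to 192) against 48.1 in spheroids (0.724 to 1069; -2.03, SE 0.64, adjusted p 0.0252). Their F1 and spheroid ranges overlapped. Cdk1 had 59.3 CPM (1.28 to 185; -0.69, adjusted p 0.168) and was detected in every F1 capture. Ccnb1 (-0.15), Plk1 (-1.29), Aurkb (-0.76) and Mki67 (0.27) did not pass the test. The count moved between 0 and 19 with the tool and the libraries kept: limma-voom, under which the median of all genes was -0.44, called 19 lower (18.2% of all genes lower), and neither the 9 high-ERCC spheroid captures nor the 5 low-Rpl19-ps11 F1 captures alone gave any. The genes changed too: with the hepatocyte score as a covariate Bub1 was still called but Cks2 (-1.16, adjusted p 0.0781) and Top2a (-0.91, adjusted p 0.0949) were not, against the low-ERCC spheroid captures Bub1 alone was called, and with DESeq2 Bub1 was not (-0.99, adjusted p 0.177). Host markers moved with this comparison, with median sums of 190 CPM in F1 and 1.11 in spheroid captures for the hepatocyte list and 1622 and 0 for the erythroid list; the part of the erythroid markers was not tested.

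The 2 livers were compared directly to ask whether the hosts differ. Of 46 genes tested, 17 were higher in F1 than in nude liver and 1 lower, with 19.2% of all 7065 genes called (11.2% higher, 7.98% lower). The members' median was 0.97, against 0.25 over all genes, and 42 were positive. Cdc20, Pttg1, Cdca3 and Ube2c were higher in F1 liver. Ube2c stood at 1.58 (SE 0.42, adjusted p 0.00427), with medians of 50.8 CPM in F1 (8.66 to 618) and 24.0 CPM in nude captures (0 to 244). Of the 4 passenger complex genes Birc5, Cdca8 and Incenp were higher. Birc5, or survivin, had a median of 143 CPM in F1 (4.33 to 583) and 52.5 in nude liver (7.18 to 432), overlapping over most of their range (1.96, SE 0.40, adjusted p 0.000163).

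Of the 6 kinesins, Kif20a, Kif2c and Kif22 were higher in F1 liver and Kif11 lower. Kif22 had 98.2 CPM in F1 captures (0.548 to 566) and 16.9 in nude captures, so that the F1 median lay in the upper part of the nude range (2.51, SE 0.47, adjusted p 4.88e-05). Kif20a had 26.5 CPM (0 to 298; 2.55, SE 0.63, adjusted p 0.00193). Kif11 had 6.03 CPM in F1 (0 to 109) against 23.5 in nude liver, and was lower by test (-1.83, SE 0.58, adjusted p 0.0171). That call was lost in 5 of 13 alternatives, among them the fit without libraries of at least 5% ERCC counts (-1.07, adjusted p 0.226), the replicate block (-1.88, adjusted p 0.147) and the 17 low-hepatocyte nude captures (-1.63, adjusted p 0.105). Cdk1 (1.83, SE 0.51, adjusted p 0.00608), Cks2 (1.88, SE 0.48, adjusted p 0.00279) and Bub3 (190 CPM in F1, 7.19 to 940; 1.69, SE 0.40, adjusted p 0.0012) were higher. Ndc80 (2.60), Cenpf (1.32), Mki67 (1.03) and Ncapd2 (1.24) were the remaining genes called higher with Cdc20, Pttg1 and Cdca3. Some of these calls were also lost in alternatives: Kif20a, Ube2c and Mki67 each in 3 of 13, Cdk1 in 2, and Birc5, Bub3 and Cks2 in 1, and all 7 of these with the 5 low-Rpl19-ps11 F1 captures. Top2a (0.27), Plk1 (0.75), Ccnb1 (0.56) and Aurkb (-0.08) did not pass. Of the hepatocyte markers 2 of 11 tested were lower in F1 than in nude captures, and of the erythroid markers 4 of 4 were higher (median sums, 1622 and 551 CPM); the part of the erythroid markers was not tested. When the fit held the hepatocyte score, 14 genes were called, all among the 18, with a members' median of 1.02 and 14.1% of all genes called. Against the 17 nude captures at or below the median hepatocyte score 6 genes were called, all higher and all among the 18. That was 13% of the members tested, with 9.84% of all genes called (5.24% higher). The members' median was 1.02 and 42 of 46 were positive.

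**Figure D4:**
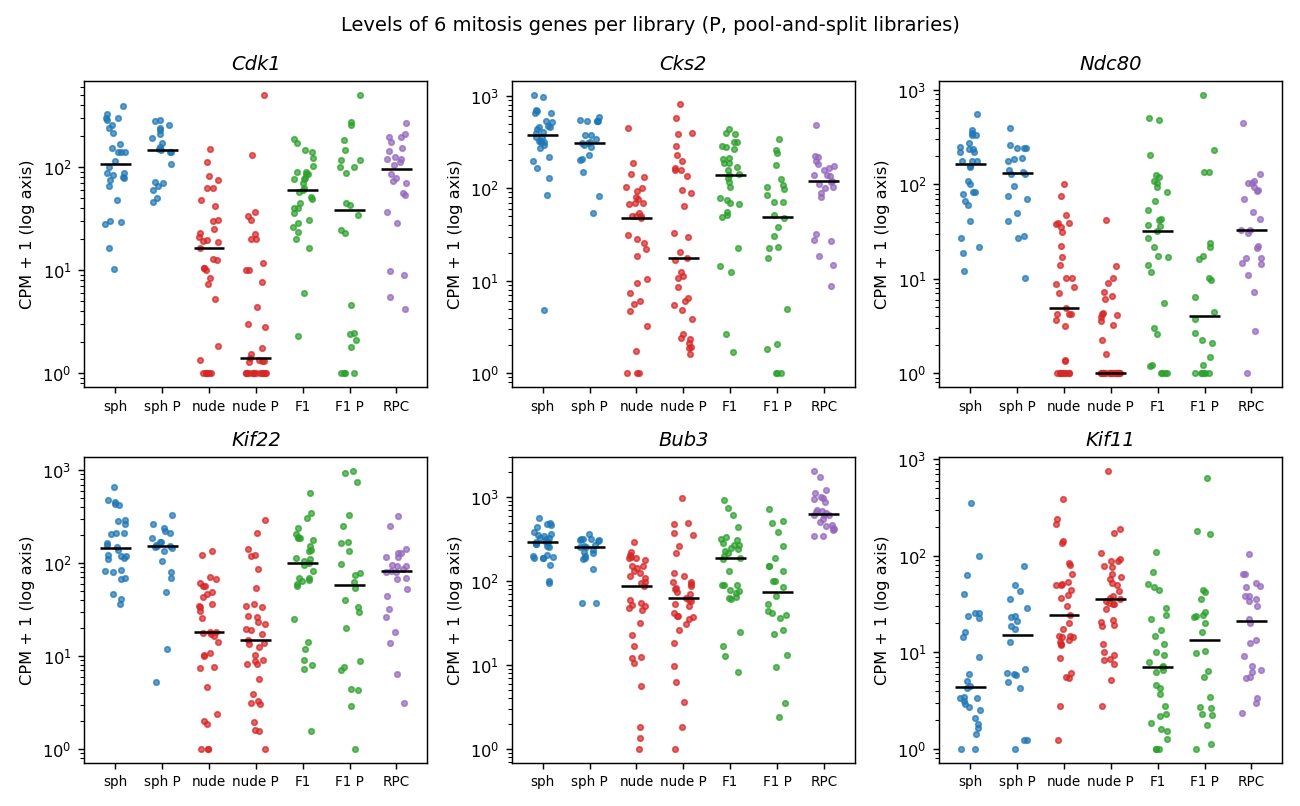
CPM plus 1 on a log axis for Cdk1, Cks2, Ndc80, Kif22, Bub3 and Kif11 in each 10-cell and pool-and-split (P) library of spheroids (sph), nude liver, F1 liver and RPC; points are libraries and black lines medians. The first 4 genes are lowest in nude liver, Bub3 is highest in RPC (median 637 CPM), and Kif11 has its highest capture median in nude liver (23.5 CPM).

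The same contrasts were read in the pool-and-split libraries. As their name says, these are splits of pooled material, and the labels do not say how many pools there were, so libraries of a group share material and the p-values measure the spread between splits, not between cultures or mice. Markers of other cells moved with these contrasts too: hepatocyte markers had median sums of 1197 CPM in nude, 321 in F1 and 0.561 in spheroid pools, erythroid markers 1259, 334 and 0, and neuroendocrine markers 1788, 3228 and 3926, and their part was not tested. In nude liver against spheroid pools 13 of 46 genes were lower and 1 higher, with 25.6% of 8010 genes called (9.13% lower, 16.5% higher). Of the genes called lower, 10 were called in both kinds of library (35.7% of the 28 and 76.9% of the 13): Cdc20, Cdca3, Cdk1, Cks1b, Kif22, Ncaph, Ndc80, Nuf2, Nusap1 and Plk1. Over all genes 415 were called lower in both, 32.5% of those lower in captures and 56.8% of those lower in pools. The sign was the same for 41 of the 46 members (89.1%) and for 75.6% of the 7463 genes tested in both. Ndc80 had 131 CPM in spheroid pools (9.14 to 395) and a median of 0 in nude pools (0 to 40.9), with 20 of 35 at 0 (-5.29, SE 0.75, adjusted p 8.05e-08). Most nude pools lay below the lowest spheroid pool. Kif11 was the gene called higher: 14.1 CPM in spheroid pools (0 to 77.5), 34.8 in nude pools (1.77 to 761), 2.22 (SE 0.61, adjusted p 0.00387). Kif11 was not called under the replicate block (2.24, adjusted p 0.0643) or against the 6 high-ERCC spheroid pools (2.45, adjusted p 0.144). Against those 6 pools 2 genes were lower and 1 higher, with 8.17% of all genes called, and against the other 14 pools alone 13 genes were called, with 21.9% of all genes called.

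In F1 against nude liver pools 6 of 41 genes were higher and 0 lower, with 12.0% of 6010 genes called (8.22% higher, 3.79% lower). They were Ndc80 (5.02), Kif22 (2.90), Cdc20 (2.63), Ncapd2 (2.45), Cdca3 (2.21) and Birc5 (1.96), and all 6 were also called higher in captures, where they make up 35.3% of the 17. Over all genes 205 were called higher in both, 25.9% of those in captures and 41.5% of those in pools. The sign was the same for 35 of 41 members (85.4%) and for 66.6% of 5776 genes. Kif11, lower in F1 captures, stood at 0.25 in pools and was not called. Of the 6 genes higher in F1 pools, none was called under the replicate block (3.59% of all genes called). The same held with the 5 low-Rpl19-ps11 F1 pools (3.05%). All 6 were called with the other scalings, with no filter and with the high-Rpl19-ps11 F1 pools. In F1 against spheroid pools 1 of 47 genes was called, with 11.6% of 7249 genes called (8.97% higher, 2.65% lower): Cdca8, which targets the passenger complex to chromosomes, was higher in its fitted mean (1.82, SE 0.51, adjusted p 0.0128). Its median went the other way, 276 CPM in F1 pools (14.0 to 6299) and 395 in spheroid pools (207 to 1072), with means of 970 and 437. Cdca8 was not called with the 5 low-Rpl19-ps11 F1 pools (-0.15, adjusted p 0.81), under limma-voom (0.19, adjusted p 0.746), with the replicate block (0.35, adjusted p 0.641), or against the low-ERCC (1.76, adjusted p 0.0654) or high-ERCC spheroid pools (1.82, adjusted p 0.552). Under limma-voom, with a median over all genes of -1.45 against 0.46 here, 29 genes were lower and 0 higher, with 40.6% of all genes called lower.

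**Figure D5:**
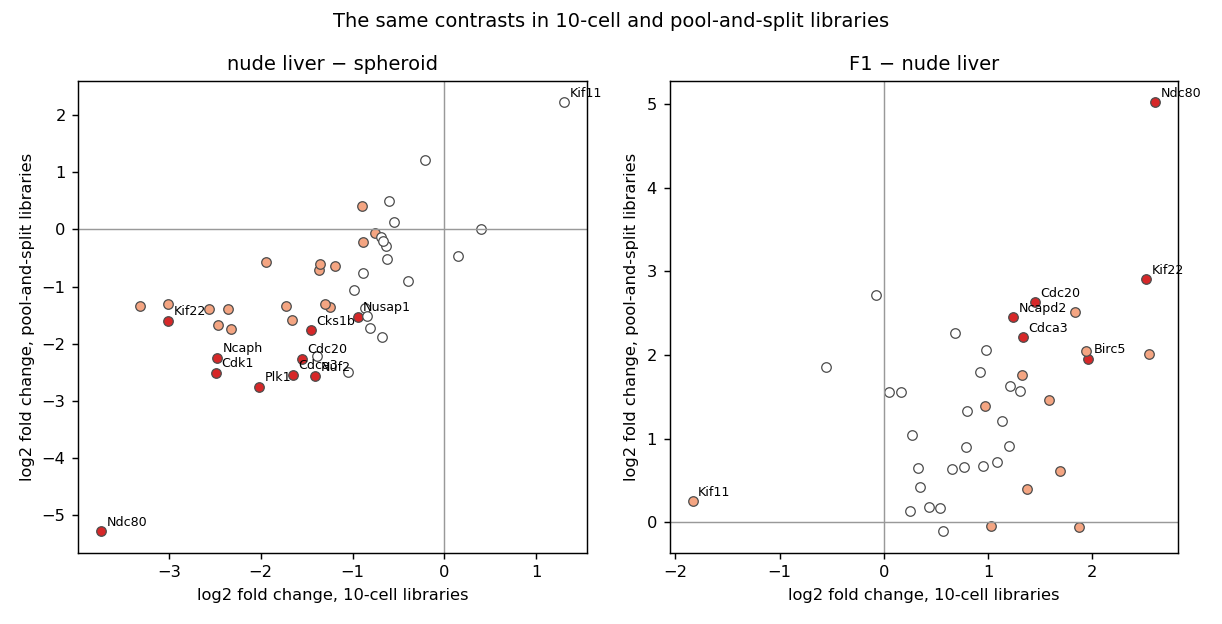
Log2 fold change of each mitosis gene in 10-cell libraries (horizontal axis) and pool-and-split libraries (vertical axis), for nude liver against spheroids (left) and F1 against nude liver (right); dark red points were called in both in the same direction, light red in captures alone and white in pools alone or neither. Of 46 genes 41 share their sign on the left and 35 of 41 on the right.

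RPC spheroids were compared with KP1 spheroids, 2 lines in the same culture form but of different genotype and origin, 1 line each. Of 47 genes, 15 were lower in RPC and 1 higher, with 21.9% of all 8600 genes called (11.6% lower, 10.3% higher). The members' median was -0.58, against 0.01 over all genes, and 5 were positive. Cks2 was lower, 117 CPM (7.75 to 479) against 378 in KP1 (-2.03, SE 0.32, adjusted p 7.67e-07), and so were Plk1 (22.9 CPM, 0 to 61.1; -1.53, SE 0.46, adjusted p 0.0107) and Ccnb2 (-1.04). The Plk1 call was lost in 3 of 10 alternatives: limma-voom (adjusted p 0.0501), the replicate block (0.0517) and the high-ERCC KP1 captures (0.115). Cdk1 did not pass: 94.0 CPM (3.16 to 266; -0.76, SE 0.33, adjusted p 0.0931). Its RPC and KP1 ranges overlapped almost wholly.

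Of the checkpoint genes, Ttk, the kinase at the head of the pathway, had 18.1 CPM in RPC (0.173 to 143) and 58.5 in KP1 (0 to 485; -2.52, SE 0.51, adjusted p 0.000121), and Bub1 was lower as well (-1.82). Bub3 was the gene called higher: 637 CPM in RPC (347 to 2082) against 291 in KP1 (93.3 to 560; 1.24, SE 0.23, adjusted p 2.35e-05). The RPC median lay above every KP1 capture. Ndc80 (-1.75), Nuf2 (-1.31) and Spc24 (-0.92) of the NDC80 complex were lower and Spc25 (-0.92) was not called. Ncaph, the condensin I clamp, had 22.6 CPM (0.211 to 153) against 82.0 (0.24 to 1038; -2.46, SE 0.52, adjusted p 0.000224), whereas Top2a (-0.23), Mki67 (-0.48), Smc2 and Smc4 did not pass. Kif22 (80.5 CPM, 2.08 to 317; -1.50, SE 0.34, adjusted p 0.000573) and Nusap1 (49.9 CPM, 7.29 to 173; -1.17, SE 0.30, adjusted p 0.00234) were lower, with overlapping ranges. Prc1, Ect2, Cdc20 and Cdca3 were the other genes called lower.

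In bulk, with 1 library a line and so no test, the 48 genes were all detected. They summed to 7153 CPM in KP1, 5274 in KP3, 11365 in KP2 and 11400 in KP5. In KP2 and in KP5, 46 of 48 genes lay above KP1, with median ratios of 1.70 and 1.66, while 51.5% and 49.4% of the 8414 genes averaging 20 CPM or more did so. In KP3, 44 of 48 lay below KP1 (median ratio 0.783), where 44.4% of the 8414 genes lay above KP1 (median ratio 0.972), and KP3 had the lowest value of the 4 lines for 43 genes. Plk1 read 45.3 CPM in KP1, 27.7 in KP3, 108 in KP2 and 154 in KP5. Whether this spread belongs to the lines or to the culture on the day was not tested.

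Spread among libraries was measured per gene as its mean absolute distance, in log2(CPM + 1), from the median of its group. It was compared between captures and pools with limma, for genes averaging 5 CPM or more. The median over the 48 genes was 1.02 in spheroid captures and 0.887 in spheroid pools, 1.66 and 1.65 in nude liver, 1.62 and 2.15 in F1 liver, and 1.15 in RPC captures. No member was called in spheroids, where 0 of 8600 genes were (0.0%). There 510 genes and 3 members had an unadjusted p under 0.05. No member was called in nude liver either, where 0.766% of 9397 genes were. In nude liver 1367 genes and 8 of 47 members had an unadjusted p under 0.05. In F1 liver 3 of 47 members were called, all less spread in captures than in pools, with 1.48% of 8760 genes called: Cdk1 (0.983 in captures, 2.69 in pools; difference -1.71, SE 0.38, adjusted p 0.0139), the chromosome-arm motor Kif4 (1.61 and 3.35; -1.74, SE 0.41, adjusted p 0.0162) and Spc25 of the NDC80 complex (1.55 and 3.02; -1.47, SE 0.38, adjusted p 0.0327). Cdk1 lay between 1.28 and 185 CPM in F1 captures and between 0 and 500 in F1 pools, with 4 of 24 pools at 0. Median ERCC shares were 13.2% in F1 pools and 2.16% in F1 captures, and 5.94% and 0.969% in nude liver; their part in the spread was not tested. The excess of captures over pools was also set against that of another setting: 1 of 47 members, Cdk1, was called for F1 liver against spheroids, with 0.504% of 8932 genes called, and none for nude liver against spheroids (0.0% of 9423 genes called; 1153 genes and 6 members at an unadjusted p under 0.05) or for F1 against nude liver (0.106% of 9418 genes; 662 genes and 4 members at an unadjusted p under 0.05).

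In captures, libraries with more of 1 gene tended to have more of the others. The Spearman correlation of each gene with the sum of the other 47 had a median of 0.394 over the 28 spheroid captures, with 47 of 48 positive, and of 0.325 in RPC, 0.316 in nude and 0.268 in F1 captures. Smc4 (0.721), Anln (0.652) and Cdk1 (0.648) followed the rest most closely in spheroid captures, and Spc24 was the negative one (-0.217) and was negative in nude (-0.325) and RPC (-0.173) captures too. The other genes averaging 20 CPM or more had median correlations with the members' sum of 0.136 in spheroid, 0.214 in RPC, 0.182 in nude and 0.0706 in F1 captures. Within the 19 low-ERCC and 9 high-ERCC spheroid captures the members' median was 0.422 and 0.35. In spheroid pools it was 0.368 over all 20 libraries, but 0.055 with 27 of 48 positive in the 14 low-ERCC pools and 0.203 in the 6 high-ERCC pools. It was 0.153 in nude pools, with 8 of 48 genes over 0.3, and 0.0275 in F1 pools with 26 of 48 positive, against 0.0472 and 0.0278 for other genes. These are descriptions over libraries that share depth and scaling. Of 4614 other genes averaging 20 CPM or more, those most like the summed members over the 28 spheroid captures were Oard1 (0.761), Cd164 (0.749), Gdi2 (0.746), Slc7a11 (0.730), Sarnp (0.719), the ribonucleotide reductase subunit Rrm1 (0.699), Marcks, Ddx20, Tpt1 and Snrpb2.

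Other genes of cell division were read from fixed lists, whose counts stand against 16.3% of all genes lower and 17.7% higher in nude liver, 4.91% and 7.72% in F1 liver, 7.98% and 11.2% in F1 against nude liver, and 11.6% and 10.3% in RPC. Of 74 other mitosis genes, 15 of 60 tested were lower and 3 higher in nude liver than in spheroid captures, among them Arhgap11a (-2.42), Pimreg (-2.52) and Tacc3 (-2.40) lower and the cytokinesis kinase Cit (3.47) and the APC inhibitor Fbxo5 (2.22) higher. In F1 liver 5 of 62 were lower and 3 higher, in F1 against nude liver 12 of 58 were higher and 2 lower, and in RPC 10 of 68 were lower and 1 higher. Their median log2 fold changes were -0.48, 0.12, 0.49 and -0.30. Of 29 DNA replication genes tested, 5 were lower and 2 higher in nude liver, with the sliding clamp Pcna lower there (-2.40) and in F1 liver (-2.13). The anaphase-promoting complex had 4 of 15 lower and 2 higher in nude liver, and the cohesin list 1 of 10 lower, Rad21 (-2.18), and 2 higher. The share lower among the DNA replication genes and both shares of the cohesin list lay near those over all genes. So did the share of anaphase-promoting complex genes higher, and those of other mitosis genes called in F1 liver and lower in RPC. None of these shares is a result about the lists.

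Among regulators of G2 and M transcription, 1 of 14 was lower and 3 were higher in nude liver. The share higher lay near the 17.7% over all genes, and neither count is a result about the list. Foxm1, an activator of these promoters, had a median of 47.2 CPM in spheroid captures (0.235 to 368), 9.57 in nude captures (0 to 466) and 15.4 in F1 captures (0 to 404), with overlapping ranges and no call in any of the comparisons of captures (-0.93, adjusted p 0.194, in nude liver). Mybl2, the activating partner of MuvB, stood at -0.34 (adjusted p 0.565) in nude liver. Nfyc, a subunit of the CCAAT-binding factor, was higher in nude (1.02) and F1 liver (1.00) and lower in RPC (-3.91, adjusted p 4.44e-20). Of the CDK inhibitors, Cdkn1c was higher (2.09) and Cdkn2c lower (-2.07) in nude liver, and Cdkn2c was lower in RPC (-2.76).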

How the data were processed

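The deposited table holds the authors' expected counts per gene from RSEM; RSEM, Bowtie2, GRCm38 and GRCh38.p12 are named in the submitters' processing notes, with no role or version, and the annotation release is not given in the sources used here. Of all values 10.7% had decimals. Values were rounded to whole numbers and 92 ERCC rows left out. Levels are CPM over the other rows.

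Means were tested with edgeR 4.0.16 in R 4.3.3 (quasi-likelihood, TMM scaling, filterByExpr, Benjamini-Hochberg over all genes) with only the 2 groups compared. The standard error is the fold change divided by the root of F. Spread was tested with limma 3.58.1 on log2(CPM + 1). DESeq2 1.42.0, limma-voom, other scalings, no filter and subsets of libraries were alternatives. Tests were checked on simulated counts. No pair of libraries within a 10-cell or pool-and-split group agreed within sampling noise.

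The 48 genes and the lists were chosen with earlier results of these data known. Full values are given per capture comparison for the 6 genes called higher and the 6 called lower that rank first by adjusted p, for up to 4 called genes of each spread comparison, and for Mki67, Top2a, Cdk1, Ccnb1, Plk1 and Aurkb; for other lists, up to 3 called genes each way, Foxm1 and Mybl2. Of the 48 genes, 11 overlap another gene, and strand is not stated. Intervals on single libraries were not computed, since PCR counts without molecular identifiers are not independent molecules.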

Additional observations from a re-analysis of the deposited data

Results flagged for a closer look

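Cdk1 was singled out because the gap in spread between captures and pools differed between settings. The excess of F1 liver over spheroids was -2.09 on the log2 scale (SE 0.46, limma adjusted p 0.0154), since Cdk1 was less spread in F1 captures than in F1 pools and more spread in spheroid captures (1.08) than in spheroid pools (0.701). It was the only one of 47 members called, with 0.504% of 8932 genes called. For nude liver against spheroids 0 of 48 were called (6 members and 1153 of 9423 genes at an unadjusted p under 0.05). For F1 against nude liver 0 of 47 were called (4 members and 662 of 9418 genes). With low-ERCC spheroid libraries alone the excess of Cdk1 was -2.31 (adjusted p 0.075), and 0 of all 9006 genes were called (1251 genes and 10 members at an unadjusted p under 0.05).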

How the results depend on the processing

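Counts of members called moved by over 1.5 times as follows. Subsets keep fewer libraries. Each percentage in brackets is the share of all genes called in that fit. Nude liver captures against spheroids (28, 34.1%) gave 14 (19.4%) against high-ERCC spheroids and 7 (13.2%) with the hepatocyte covariate. F1 liver captures against spheroids (3, 12.6%) gave 5 (12.5%) with TMMwsp, 6 (26.7%) with no filter, 19 (23.8%) with limma-voom and 6 (19.4%) with DESeq2. That comparison gave 0 (1.96%) and 1 (8.57%) against high- and low-ERCC spheroids, and 7 (14.9%) and 0 (3.65%) with high and low Rpl19-ps11. F1 against nude captures (18, 19.2%) gave 1 (2.1%) with low Rpl19-ps11 and 6 (9.84%) with low-hepatocyte nude captures. RPC (16, 21.9%) gave 10 (18%) against high-ERCC spheroids. Nude liver pools (14, 25.6%) gave 43 (59.7%, with 43.6% lower) with limma-voom and 3 (8.17%) against high-ERCC pools. F1 liver pools (1, 11.6%) gave 3 (11.8%) with RLE, 3 (12.4%) with TMMwsp, 6 (28.2%) with no filter and 29 (46.1%) with limma-voom. Those pools gave 0 (0.262%) against high- and 0 (8.24%) against low-ERCC pools, and 3 (14%) and 7 (18.9%) with high and low Rpl19-ps11. F1 against nude pools (6, 12%) gave 14 (29.8%) with no filter, 10 (13.6%) with limma-voom, and 10 (12.5%) and 1 (3.05%) with high and low Rpl19-ps11. The spread calls in F1 liver (3, 1.48%) became 1 (0.628%) with a pseudocount of 5, 9 (12.5%) around the mean and 1 (0.462%) with high Rpl19-ps11. The excess in F1 over spheroids (1, 0.504%) became 3 (2.05%) at 20 CPM, 6 (8.92%) around the mean and 0 (0%) with low-ERCC spheroids. F1 over nude liver (0, 0.106%) became 2 (2.06%) around the mean. The other 71 of 112 alternatives stayed within 1.5 times; beyond what the subsets show, the cause was not tested.

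Replicate numbers are shared between groups, but did not pair libraries: the median correlation of same-numbered libraries lay between -0.00498 and 0.00592, and 1 to 5 of 38 to 58 libraries correlated best with their own number. With the replicate block the counts were 34 in nude captures, 7 in F1 captures, 7 in F1 against nude captures and 14 in RPC. In that order 35.8%, 13%, 13.2% and 24.1% of all genes were called. The counts of 7 were 14.9% of members in F1 captures and 15.2% in F1 against nude captures, near these shares. The pools gave 31 in nude (all lower), 8 in F1 (all lower and without Cdca8) and 0 in F1 against nude pools. There 40.2% (27.9% lower), 27.1% (23.9% lower) and 3.59% of all genes were called. Without the block the same libraries gave 25, 6, 16, 16, 13, 3 and 6, in that order. Of all genes 31.2%, 13.5%, 18.2%, 21.1%, 24.9%, 13.1% and 8.19% were then called.

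Among genes given full values in captures, Aurkb, Ccnb1 and Mki67 changed sign in comparisons where they were not called. In F1 against spheroid pools, where 1 gene was called, Cdca8 became -0.15 with low Rpl19-ps11. Aurkb became 0.0075 with low-hepatocyte captures and 0.028 with the covariate in nude liver; in F1 against nude liver it became 0.043 with no filter, 1.53 with limma-voom, 1.11 with DESeq2, 1.17 with the block and 0.65 with low Rpl19-ps11; in RPC 0.018 with the block. Ccnb1 became 0.043 in F1 liver on libraries with shared numbers, 0.30 with the covariate, and -0.0061 in F1 against nude liver with the block. Mki67 in F1 liver became -0.21 with limma-voom, -0.22 with DESeq2, -0.22 with the block, -0.16 with low Rpl19-ps11 and -0.22 with the covariate.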

Other observations

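For several members the level in 10-cell captures differed from that in bulk. For KP1 spheroids, the ratio of the capture median to the bulk library was 0 for Kif20b (0 and 55.9 CPM), 0.0134 for Kif11 (3.39 and 254), 0.0469 for Anln (6.26 and 133) and 0.111 for Ect2 (13.9 and 125). At the other end it was 10.6 for Pttg1 (149 and 14.1), 8.78 for Cks2 (378 and 43.0) and 5.23 for Ccnb2 (183 and 34.9). The bulk value is from 1 library, and the cause was not tested.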
